A study of Rattus norvegicus with 8 samples.

Results

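Tissue factor, the plasminogen activators, the urokinase receptor and 4 genes that restrain or sense thrombin were followed in rat lung during hypobaric hypoxia. The 8 genes were F3 (tissue factor), Plau (urokinase), Plaur (urokinase receptor), Plat (tissue plasminogen activator), Thbd (thrombomodulin), Tfpi (tissue factor pathway inhibitor), Procr (endothelial protein C receptor) and F2r (the thrombin receptor PAR1). They were found as the non-control probes whose gene name in the scanner files was one of these symbols, which gave 10 probes and 19 spots per array out of 41012 probes and 43379 spots. Procr and Tfpi had 2 probes each, Plat had 1 probe printed in 10 spots, and each other gene had 1 probe in 1 spot. All 8 genes passed the filter on low signals, among 24141 genes tested, but F2r passed through its saline hypoxia signal and is left out of the counts below, which are over the other 7.

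Tissue factor is the membrane protein that starts coagulation when it meets factor VII, and it leads to thrombin, which cleaves fibrinogen to fibrin and signals to cells through PAR1. Tfpi blocks the tissue factor complex, while thrombomodulin and the endothelial protein C receptor turn thrombin towards the activation of protein C, an anticoagulant. Urokinase and tissue plasminogen activator convert plasminogen to plasmin, which dissolves fibrin, and the urokinase receptor holds urokinase at the cell surface. The lung is rich in tissue factor and in the endothelium that carries these anticoagulant proteins.

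Before exposure the rats were pretreated during 7 days with either normal saline or cobalt, the latter dosed by body weight at 12.5 mg per kg. Hypoxia at an altitude setting of 30000 ft then lasted 6, 12, 24 or 48 h. Each of the 8 two-colour arrays compared the lung RNA of 1 pretreatment at 1 duration with the 0 h lung RNA of the same pretreatment, so that the 0 h group of cobalt rats had received cobalt too. Strain, sex, age, and whether an array held 1 animal or a pool are not given in the sources used here. With 1 array for each pretreatment and duration, p-values measure the spread between the arrays, durations included, except where each duration has its own term. There they measure how far the gap between cobalt and saline arrays varied from duration to duration. The spread between 0 h animals enters none of the p-values. The 4 saline arrays carried the hypoxia RNA in Cy5 and sit together on slide 1, whereas the 4 cobalt arrays carried it in Cy3 and sit on slide 2, which was scanned on a different day. In any comparison of cobalt with saline rats the effects of pretreatment, dye, slide and scan cannot be told apart. Within a pretreatment the hypoxia RNA is in the same dye on all 4 arrays. Hypoxia and dye therefore cannot be told apart in an estimate for saline or for cobalt rats alone.

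The probes are 60-base oligonucleotides, and the files place them on the rat build rn3. The following 4 are shown because they read Plau and Plaur, which were called at 6 h, Procr, which had the largest single ratio, and Plat, which was measured in most spots. No part of them is marked, and an annotation of that build was not used here.

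Plau: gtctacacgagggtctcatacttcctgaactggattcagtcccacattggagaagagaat
Plaur: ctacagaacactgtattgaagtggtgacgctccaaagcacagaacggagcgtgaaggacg
Plat: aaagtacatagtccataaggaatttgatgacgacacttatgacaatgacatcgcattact
Procr: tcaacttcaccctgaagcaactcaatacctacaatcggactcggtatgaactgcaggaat

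The Plau probe lies at chr15:3680711-3680770 on the minus strand and the Plaur probe at chr1:79791146-79791205 on the plus strand. The 60 bases of the Plat probe span 146 bases of the genome at chr16:73717667-73717812 on the minus strand. The Procr sequence is that of the dimmer of its 2 probes, at chr3:146177881-146177940 on the plus strand. The brighter one starts 622 bases further on, at chr3:146178503-146179028, where its 60 bases span 526 bases of the genome. The largest log2 ratio, 2.02 in saline rats at 6 h, came from the brighter probe, and the probe shown gave 1.73 there. The probes of F3 (chr2:218345287-218345345, plus strand), Thbd (chr3:137064542-137064601, minus strand) and F2r (chr2:25906590-25906649, minus strand) are given by position. The probes of Tfpi lie 8046 bases apart, with the brighter one at chr3:67550903-67550962 and the other at chr3:67558949-67559008, both on the minus strand.

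The RefSeq promoter table (build GRCr8) held windows for 5 of the 8 genes (Plau, Plaur, Tfpi, Procr and F2r). The 250 bases before the annotated start are shown for Plaur, Procr and Plau, since these genes had the largest ratios at 6 h among the 5. Capitals mark matches to TGANTCA, the letters of an AP-1 site, and to ACGTG or GCGTG, the core letters of a hypoxia response element, searched on both strands.

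Plaur: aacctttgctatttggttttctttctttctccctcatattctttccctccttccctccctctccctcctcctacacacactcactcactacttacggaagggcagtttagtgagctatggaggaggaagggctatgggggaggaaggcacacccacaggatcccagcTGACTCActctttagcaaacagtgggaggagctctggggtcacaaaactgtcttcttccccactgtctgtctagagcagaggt
Procr: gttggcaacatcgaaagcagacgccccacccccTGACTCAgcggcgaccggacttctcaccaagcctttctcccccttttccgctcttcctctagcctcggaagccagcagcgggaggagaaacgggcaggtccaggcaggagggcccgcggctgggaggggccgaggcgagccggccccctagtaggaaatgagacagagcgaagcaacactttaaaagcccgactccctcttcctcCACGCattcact
Plau: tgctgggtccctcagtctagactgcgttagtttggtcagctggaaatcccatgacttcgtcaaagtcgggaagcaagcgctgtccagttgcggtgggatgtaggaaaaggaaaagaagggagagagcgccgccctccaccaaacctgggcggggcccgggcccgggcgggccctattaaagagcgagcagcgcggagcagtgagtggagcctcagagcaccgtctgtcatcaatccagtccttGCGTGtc

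These windows are chr1:89181113-89181362 (plus strand) for Plaur, chr3:164714477-164714726 (plus strand) for Procr and chr15:3511988-3512237 (minus strand) for Plau. Plaur has TGACTCA at position -83 from the start, and Procr has it at -217. Procr also has GCGTG on the minus strand at -12, and Plau has GCGTG at -7. Of 33469 windows of 300 bases in the table, 7.33% held TGANTCA, 19.3% held ACGTG, 29.7% held GCGTG and 41.6% held at least 1 of the last 2, so such matches are common. A match is a description of the letters only.

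On every array 57.7% to 67.2% of spots in green and 63.5% to 72.7% in red were well above background, and within a pretreatment the 0 h channels correlated with each other at 0.992 or above. The log2 ratios of all tested genes correlated at 0.56 to 0.70 among saline arrays, at 0.41 to 0.75 among cobalt arrays and at -0.10 to 0.27 between the 2 sets. None of the 10 probes was saturated or marked as an outlier on any array. All but the F2r probe were well above background in both channels of all 8 arrays. Ratios below are log2 of hypoxia over 0 h after loess normalization within each array, which sets the median of the tested genes between -0.03 and 0.03 on each array. A gene was called at a Benjamini-Hochberg adjusted p under 0.05 in limma over all 24141 genes, so every adjusted p below is limma's.

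Averaged over both pretreatments, 4 of the 7 genes measured in both channels of all arrays were called: F3 and Plaur rose, and Plau and Tfpi fell. Plat, Thbd and Procr were not called. Over all genes 31.9% were called in this comparison, 15.7% higher and 16.3% lower, and the median estimate was -0.00 over all genes and 0.14 over the 7. F3 and Plaur had ratios above 0 on all 8 arrays, as 6.76% of all genes did. The plot of ratios by duration shows that the 8 genes did not follow a single course.

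**Figure D1:**
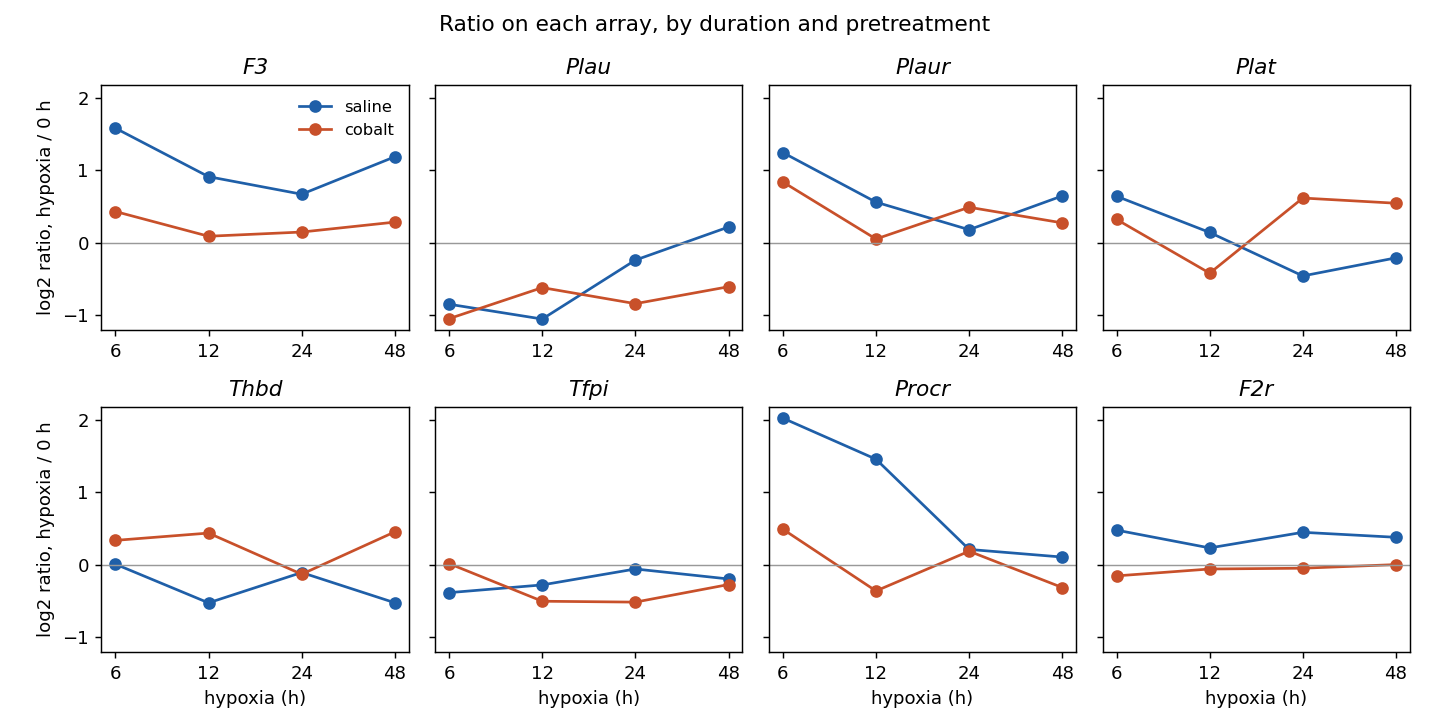
Log2 ratio of hypoxia over 0 h (vertical axis) against hours of hypoxia (horizontal axis, 4 evenly spaced durations) for each of the 8 genes, with saline arrays in blue and cobalt arrays in orange, 1 array per point. Procr falls from 2.02 at 6 h to 0.10 at 48 h in saline rats, F3 is higher in saline than in cobalt rats at every duration, and F2r was not well above background on any cobalt array.

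Tissue factor was above its 0 h signal on every array, and more so in saline than in cobalt rats. In saline rats its log2 ratio was 1.58 at 6 h, 0.91 at 12 h, 0.67 at 24 h and 1.18 at 48 h, which is 2.99, 1.88, 1.59 and 2.27 times the 0 h signal. In cobalt rats it was 0.43, 0.09, 0.14 and 0.28 at the same durations. All 8 ratios were above 0, and the lowest saline ratio lay above the highest cobalt ratio. F3 rose 1.58-fold on average (log2 0.66 ± 0.09, SE; adjusted p = 0.000924) and 2.12-fold in saline rats (1.08 ± 0.13; adjusted p = 0.000297). The cobalt estimate of 0.24 ± 0.13 was not called (adjusted p = 0.232).

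The F3 response was smaller in cobalt than in saline rats by 0.85 ± 0.18 on the log2 scale (adjusted p = 0.00785). In that comparison 30.1% of all genes were called, 12.7% with the higher and 17.4% with the lower response in cobalt rats. Of the 7 genes 2 were called, F3 lower and Thbd higher. Ratios of saline and cobalt arrays did not overlap for F3, as for 31.9% of all genes. Under median centring in place of loess, which leaves the balance of the dyes at each brightness uncorrected, the F3 estimate in cobalt rats turned to -0.85 (adjusted p = 0.000821) and the difference grew to -2.94. The difference kept its sign and its call in all 11 alternatives, median centring included, and without any 1 array.

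The signal of the 0 h channel enters each ratio. For F3 the 0 h level (log2, loess and quantile scaled) was 11.44, 11.44, 11.46 and 12.04 on the saline arrays of 6, 12, 24 and 48 h, with the 48 h array apart from the others. On the cobalt arrays it was 12.53, 12.18, 12.35 and 12.16, so all 4 lay above all 4 saline values. With the software's processed signals the saline 48 h array, at 13.60, lay above cobalt 12 h (13.29) and cobalt 48 h (13.38), so the sets overlapped. The loess and quantile scaled means were 11.59 ± 0.30 (SD, 4 arrays) and 12.31 ± 0.17, a gap of 0.71 that was not tested, since slide and dye differ with it. The mean F3 levels in hypoxia on that scale, 12.68 on saline and 12.54 on cobalt arrays, lay closer to each other. They were not tested either. In saline rats the F3 levels were, from the highest, 13.22 at 48 h, 13.01 at 6 h, 12.35 at 12 h, 12.13 at 24 h and 11.59 at 0 h. The ratios to the 0 h channel of the same array put 6 h (1.58) above 48 h (1.18). In cobalt rats the 6 h level of 12.95 was the highest, and the 24 h level was 12.50 and the 12 h level 12.27, with 0 h between them. The labels name 1 control RNA for all 4 arrays of a pretreatment, so the SD of a 0 h level covers technical spread only, and with 1 array per duration no spread between animals is at hand to separate neighbours in these orders.

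Tfpi, whose protein inhibits the tissue factor complex, was lower during hypoxia. Its brighter probe gave -0.39, -0.28, -0.06 and -0.20 at 6, 12, 24 and 48 h in saline rats and 0.01, -0.51, -0.52 and -0.28 in cobalt rats. It was below 0 on 7 of the 8 arrays, and the 2 sets overlapped. On average Tfpi fell 1.21-fold (-0.28 ± 0.07; adjusted p = 0.0147), a call that every alternative and every left-out array kept. The saline estimate of -0.23 ± 0.10 was not called (adjusted p = 0.0872). It was called with the mean over probes (-0.61, adjusted p = 0.00121), with the other probe (-0.99, adjusted p = 0.00084) and without cobalt 6 h (-0.23, adjusted p = 0.0498), and it turned to 0.66 under median centring (adjusted p = 0.000512). The cobalt estimate of -0.32 ± 0.10 was called (adjusted p = 0.045).

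The cobalt call for Tfpi was lost without saline 12, 24 or 48 h or cobalt 12, 24 or 48 h (estimates -0.34 to -0.26, adjusted p up to 0.189). It was also lost with no filter (adjusted p = 0.0642), with duration as a factor (adjusted p = 0.0764) and with the other probe (-0.42, adjusted p = 0.0722). The other Tfpi probe, which reads a different transcript record, gave -0.88, -1.54, -0.83 and -0.70 in saline rats and -0.70, -0.43, -0.52 and -0.02 in cobalt rats. The probes differed most on the saline 12 h array, by 1.26, and had the same sign on 7 of 8 arrays. With the other probe the mean was -0.70 over all arrays, and -0.99 in saline rats against -0.42 in cobalt rats. Cobalt minus saline was -0.09 ± 0.14 with the brighter probe (adjusted p = 0.665) and 0.57 with the other one (adjusted p = 0.0615), so the sign of that difference depended on the probe.

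**Figure D2:**
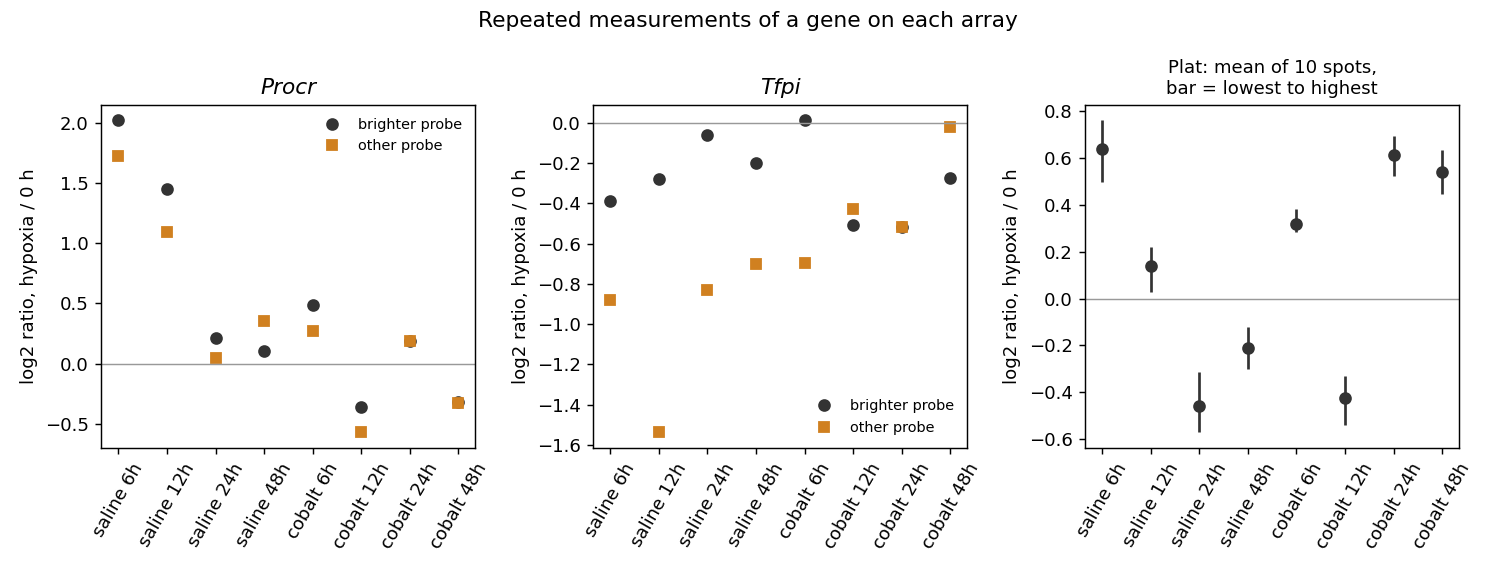
Log2 ratio of hypoxia over 0 h (vertical axis) on each of the 8 arrays (horizontal axis) for both probes of Procr, both probes of Tfpi, and the 10 spots of the Plat probe as a mean with a bar from the lowest to the highest spot. The Procr probes lie within 0.36 of each other, the Tfpi probes differ by up to 1.26, and the Plat spots lie within a narrow band on each array.

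Procr, the receptor that presents protein C to the thrombin and thrombomodulin complex, had the largest single ratio of the 8 genes after loess. In saline rats its log2 ratio was 2.02 at 6 h and 1.45 at 12 h, and then 0.21 at 24 h and 0.10 at 48 h, which is 4.06, 2.74, 1.16 and 1.07 times the 0 h signal. In cobalt rats it was 0.49, -0.36, 0.18 and -0.32. Only the 2 early saline arrays were far from 0. The other probe gave 1.73, 1.09, 0.05 and 0.36 in saline rats and 0.27, -0.57, 0.18 and -0.33 in cobalt rats, with the same sign as the first on all 8 arrays and a largest gap of 0.36.

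Procr rose 1.93-fold in saline rats (0.95 ± 0.29; adjusted p = 0.0271), where 3 of the 7 genes (F3, Plaur and Procr) were called higher and none lower, against 40.1% of all genes called, 21.8% higher and 18.3% lower. That call was lost without the saline 6 h array (0.59, adjusted p = 0.108) or the saline 12 h array (0.78, adjusted p = 0.108). The average over both pretreatments, 0.47 ± 0.21, was not called (adjusted p = 0.107), but was without the saline 48 h array (0.61, adjusted p = 0.046). In cobalt rats the estimate was -0.00 ± 0.29, with a sign that varied between settings. The cobalt minus saline difference of -0.95 ± 0.41 was as large as the saline response and was not called (adjusted p = 0.108).

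The fall of the Procr ratio with time was tested as 24 and 48 h against 6 and 12 h. It was -1.58 ± 0.31 in saline rats (adjusted p = 0.344), -0.13 ± 0.31 in cobalt rats and -0.85 ± 0.22 in both (adjusted p = 0.306). In that comparison over both pretreatments limma called 0 of 24141 genes (0%), while 12.9% of genes and 2 of the 7, Procr and Plau, had an unadjusted p under 0.05. The test of any difference between durations called 2 of all genes (0.00828%) and none of the 7. The time course of Procr therefore stands as 2 arrays high and 2 low in saline rats, with no call across genes.

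Thrombomodulin, the endothelial partner of Procr, did not share that course. Its log2 ratio was 0.01, -0.53, -0.11 and -0.53 in saline rats and 0.33, 0.43, -0.13 and 0.45 in cobalt rats. At 24 h the 2 pretreatments gave nearly the same value, and at the other durations the cobalt array was the higher. The average was -0.01 ± 0.09 (adjusted p = 0.948), with -0.29 ± 0.12 in saline rats (adjusted p = 0.0861) and 0.27 ± 0.12 in cobalt rats (adjusted p = 0.148). The cobalt response was above the saline response by 0.56 ± 0.17 (adjusted p = 0.0356).

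The Thbd difference is a weak call. It was lost with the software's log ratio (0.52, adjusted p = 0.0551), with scaling between arrays, with the series matrix and with duration as a factor, and without saline 12 or 48 h or cobalt 6, 12 or 48 h (0.48 to 0.54 without these). With median centring it reversed to -1.92 (adjusted p = 3.88e-06). The 0 h level of its probe was 14.53 ± 0.05 on saline and 14.00 ± 0.05 on cobalt arrays. Its mean level in hypoxia was 14.24 on saline and 14.27 on cobalt arrays. These levels were not tested.

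F2r encodes PAR1, through which thrombin acts on platelets in some species and on endothelium, smooth muscle and fibroblasts. Its probe was near the detection limit: the hypoxia channel was well above background on all 4 saline arrays, the 0 h channel on 2 of 4, and neither channel on any cobalt array. In saline rats the log2 ratio was 0.48, 0.23, 0.45 and 0.38, with an estimate of 0.38 ± 0.05. The software's log ratio, which lacks the offset of 50 that normexp adds, gave 2.08, 1.13, 1.81 and 1.06 on the same arrays and an estimate of 1.52. All 4 saline arrays were above 0 by either measure. F2r passed the filter through this same hypoxia signal, so the shared sign is not counted as support for a rise. The size is not settled at these signals, and no fold is given.

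In cobalt rats neither channel gave more than a bound. The fitted average of 0.16 (0.56 with the software's ratio, 0.47 under median centring) and the fitted cobalt minus saline value of -0.45 (-1.93 and 0.19) include those arrays, so neither is read as a change or a difference of F2r. The strict filter removed F2r from the test.

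**Figure D3:**
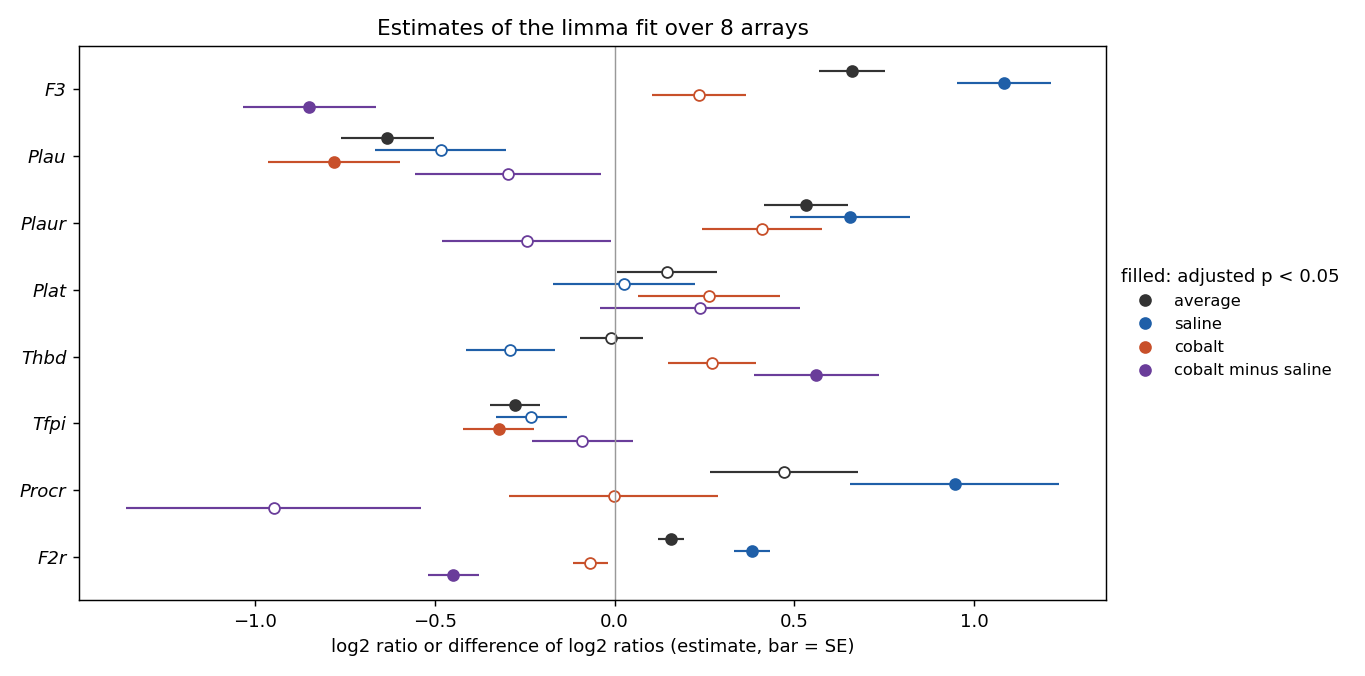
Estimates with their SE (horizontal axis, log2 ratio of hypoxia over 0 h, or for purple the difference of 2 such ratios) for each of the 8 genes (vertical axis) in the average, in saline rats, in cobalt rats and as cobalt minus saline. Filled points passed an adjusted p of 0.05, as F3 did in all but the cobalt estimate, and Plat is the gene with open points only. The F2r points other than saline include arrays on which neither channel was well above background.

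Urokinase and its receptor moved in opposite directions. The Plau ratio was -0.85, -1.06, -0.24 and 0.21 at 6, 12, 24 and 48 h in saline rats, and -1.05, -0.62, -0.84 and -0.61 in cobalt rats. It was below 0 on 7 of 8 arrays, with saline 48 h the exception. On average Plau fell 1.55-fold (-0.63 ± 0.13; adjusted p = 0.0056) under every alternative and without any 1 array. It fell 1.72-fold in cobalt rats (-0.78 ± 0.18; adjusted p = 0.016), where 2 of the 7 genes, Plau and Tfpi, were called lower and none higher, against 20.8% of all genes called, 8.54% higher and 12.3% lower.

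The cobalt call for Plau was lost without cobalt 6 h (-0.69, adjusted p = 0.0671) or cobalt 24 h (-0.76, adjusted p = 0.0662). The saline estimate was -0.48 ± 0.18 (adjusted p = 0.0593), called with the software's log ratio (-0.80, adjusted p = 0.0312), the series matrix and duration as a factor, and without saline 48 h (-0.72, adjusted p = 0.00971). The cobalt minus saline difference, -0.30 ± 0.26, was not called (adjusted p = 0.415). Late minus early was 0.94 ± 0.22 in saline rats (adjusted p = 0.363) and 0.11 ± 0.22 in cobalt rats (adjusted p = 0.92), and 0.52 ± 0.16 over both (adjusted p = 0.313). In saline rats the Plau level at 48 h, 8.68, was above the 0 h level of 8.47 ± 0.02 and the levels of the other durations were below it.

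The Plaur ratio was 1.24, 0.56, 0.18 and 0.64 in saline rats and 0.84, 0.05, 0.49 and 0.27 in cobalt rats. The 6 h array was the highest in both pretreatments, and the 2 sets overlapped. Plaur rose 1.45-fold on average (0.53 ± 0.12; adjusted p = 0.00802) and 1.57-fold in saline rats (0.65 ± 0.17; adjusted p = 0.012). In cobalt rats it was 0.41 ± 0.17 (adjusted p = 0.11), and -0.17 under median centring, with no call, while scaling between arrays (0.49, adjusted p = 0.0435) and duration as a factor gave a call. The difference of -0.24 ± 0.24 was not called (adjusted p = 0.465).

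Plat, the activator released by endothelium, was measured in the most spots and had no called change. Its 10 spots gave means of 0.64, 0.14, -0.46 and -0.21 in saline rats and 0.32, -0.42, 0.61 and 0.54 in cobalt rats, with an SD between spots of 0.03 to 0.09 on each array. The spots of an array share 1 RNA sample and 1 probe, so this SD is not an error of the condition. The ratio was above 0 at 6 h and below 0 at 24 and 48 h in saline rats, while in cobalt rats it was below 0 at 12 h only. The estimates were 0.14 ± 0.14 on average (adjusted p = 0.457), 0.03 ± 0.20 in saline and 0.26 ± 0.20 in cobalt rats.

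Late minus early for Plat was -0.72 ± 0.27 in saline rats (adjusted p = 0.446) and 0.63 ± 0.27 in cobalt rats (adjusted p = 0.606). The difference of these contrasts, 1.35 ± 0.38, was not called (adjusted p = 0.918), nor was that of Procr, 1.45 ± 0.44, or of Plau, -0.83 ± 0.32 (both adjusted p = 0.918). Limma called 0 of 24141 genes (0%) in this comparison, with 5.44% of genes and 3 of the 7 (Plat, Procr and Plau) at an unadjusted p under 0.05.

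At single durations the 2 arrays of a duration, 1 of each pretreatment, were averaged. They were tested against the spread left after duration and pretreatment were fitted. That spread is how far the gap between cobalt and saline arrays varied over the 4 durations. At 6 h 3 of the 7 genes were called, against 7.75% of all genes, 4.1% higher and 3.66% lower. F3 rose 2.00-fold (1.00 ± 0.12; adjusted p = 0.00929), Plaur rose 2.05-fold (1.04 ± 0.16; adjusted p = 0.0161) and Plau fell 1.93-fold (-0.95 ± 0.21; adjusted p = 0.0431). The Procr estimate at 6 h, 1.25 ± 0.30, was not called (adjusted p = 0.0527). None of the 7 was called at 12 h, where 3.85% of all genes were, or at 24 h, where 1.38% were. An unadjusted p under 0.05 was found for 3 of the 7 and 26.1% of all genes at 12 h. At 24 h 2 of the 7 and 17.9% of all genes had such a p. At 48 h F3 was called (0.73 ± 0.12; adjusted p = 0.0484), against 1.5% of all genes.

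These calls rest on few arrays. Without saline 6 h or cobalt 6 h none of the 6 h calls remained (F3 0.80 and 1.20, Plaur 0.93 and 1.15, Plau -0.88 and -1.02), and the Plau call also ended without any 1 of the 24 and 48 h arrays, with no background subtraction and with scaling between arrays. The Procr estimate at 6 h was called with no filter (adjusted p = 0.0477) and the strict one (adjusted p = 0.048), and without saline 12 or 24 h or cobalt 12 or 24 h (adjusted p = 0.0302 to 0.0406). The F3 call at 48 h ended in 5 of 10 other settings and without any 1 of the arrays of 12, 24 and 48 h (0.70 to 0.77).

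**Figure D4:**
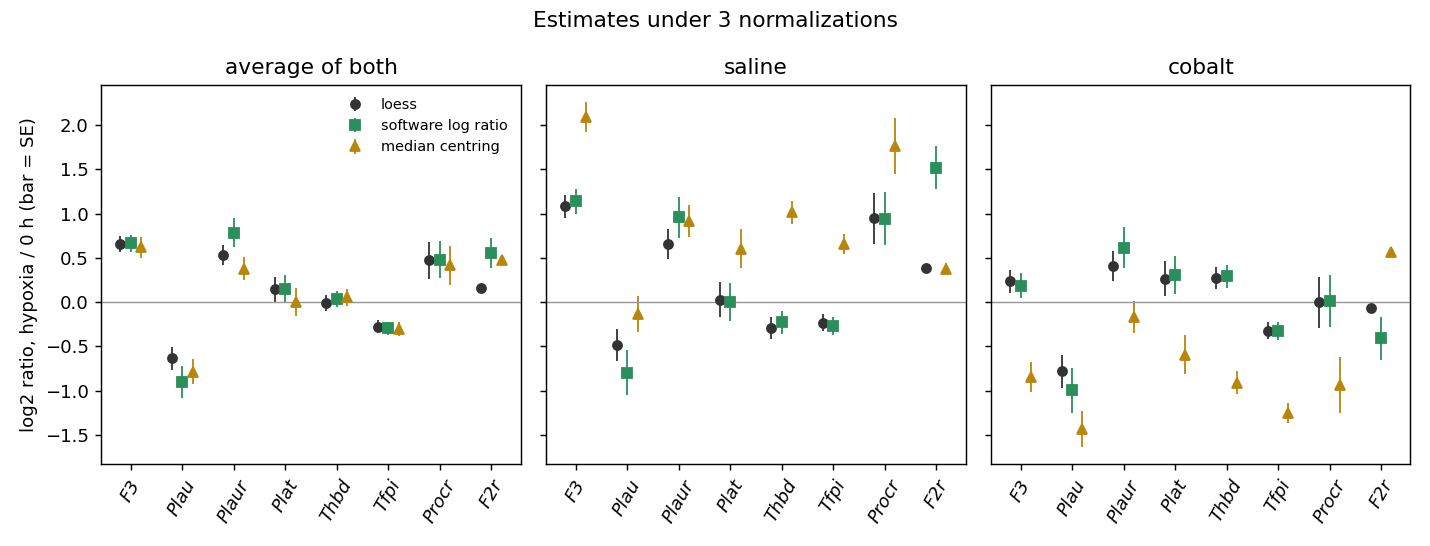
Estimates with their SE (vertical axis, log2 ratio of hypoxia over 0 h) for the 8 genes (horizontal axis) in the average of both pretreatments, in saline rats and in cobalt rats, under loess, the software's own log ratio and median centring. In the average the 3 agree in sign for F3, Plau, Plaur and Tfpi, while median centring stands above the others in saline rats for F3, Thbd and Tfpi and below them in cobalt rats.

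The normalization mattered more within a pretreatment than for the average. Median centring moved the median of the tested genes to between 0.23 and 0.34 on saline arrays and between -0.53 and -0.45 on cobalt arrays, and it raised the share of called genes that were higher from 54.3% to 84.1% in saline rats and lowered it from 41% to 25.3% in cobalt rats. In cobalt minus saline that share went from 42.2% to 21.5%. With it 6 of the 7 genes were called in saline rats, 6 in cobalt rats and 7 in the difference. Most of all 24141 genes were called too, 14265 in saline rats, 19418 in cobalt rats and 19058 in the difference. In the average, where the dye orientations are balanced, the share of called genes that were higher was 49.1% with loess and 48.3% with median centring. There 4 of the 7 genes were called with either, against 7711 of all genes with loess and 11427 with median centring.

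Of 60 other genes of haemostasis, in 6 lists, 43 were tested, 34 of them well above background in both channels of all arrays. In the average 9 were called higher, 7 lower and 27 not, against 31.9% of all genes called, with a median of -0.01 against -0.00 over all genes. In saline rats 7 were higher and 9 lower, against 40.1% of all genes called. In cobalt rats 6 were higher and 7 lower, against 20.8%. With median centring the saline counts were 25 and 4, and the cobalt counts 8 and 25. Cobalt minus saline had 6 higher and 7 lower with loess, against 30.1% of all genes called, and 4 higher and 29 lower with median centring.

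Among 11 tested genes of the initiation and common pathway other than F3, 3 were higher and 3 lower in the average. Kng1, the precursor of bradykinin and a contact factor, rose 4.96-fold (2.31 ± 0.17; adjusted p = 3.24e-05), with ratios of 1.47 to 2.97 on all 8 arrays. F2, which encodes prothrombin, rose 1.83-fold (0.87 ± 0.22; adjusted p = 0.016), or by 1.58 on the log2 scale with the software's ratio. The F2 ratios were 1.95, 1.68, 0.63 and 1.48 in saline rats, but 1.73, -0.14, -0.02 and -0.37 in cobalt rats. The F2 estimate in cobalt rats, 0.30 ± 0.32, was not called (adjusted p = 0.54). F11, factor XI, fell 1.54-fold (-0.62 ± 0.05; adjusted p = 4.24e-05), and by 1.77 with the software's ratio. Of the 4 cobalt arrays, 2 had its hypoxia signal well above background. Vwf was among the 5 that were not called (-0.24 ± 0.14).

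Among 7 tested anticoagulant genes other than Tfpi, Thbd and Procr, 2 were higher and 1 lower. Tfpi2, an inhibitor related to Tfpi, rose by 0.55 ± 0.05 on the log2 scale (adjusted p = 0.000177), and by 1.62 with the software's ratio, with its 0 h channel well above background on 2 of 4 saline and 3 of 4 cobalt arrays. Its cobalt minus saline difference was -0.56 ± 0.11 (adjusted p = 0.00473), and -1.31 with the software's ratio. Serpina5, the protein C inhibitor, fell 1.68-fold (-0.74 ± 0.09; adjusted p = 0.000542). Proc, protein C itself, the ligand of Procr, was above 0 on all saline arrays (0.96, 1.08, 1.25 and 1.50) and below 0 on all cobalt arrays (-0.21, -0.68, -0.47 and -0.85). Its difference of -1.75 ± 0.17 was called (adjusted p = 0.000209) in all settings, with -2.67 under median centring, while its average of 0.32 ± 0.08 (adjusted p = 0.0168), 0.54 with the software's ratio, was not called under median centring (0.16) or scaling between arrays (0.20), or without cobalt 24 h (0.31, adjusted p = 0.05).

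None of 3 other protease receptors was called in the average. F2rl1, which encodes PAR2, was lower in saline rats (-0.29 ± 0.08; adjusted p = 0.02) and higher in cobalt rats (0.26 ± 0.08; adjusted p = 0.0487). Its cobalt minus saline difference was 0.55 ± 0.12 (adjusted p = 0.00705), 1.28 with the software's ratio, and 0.27 with no call under median centring. Among 8 other genes of plasminogen activation 2 were higher, 0 lower and 6 not called. Eno1, an enolase that also binds plasminogen, rose 1.58-fold (0.66 ± 0.09; adjusted p = 0.000776). Lrp1, a clearance receptor of the plasminogen activators, rose 1.16-fold (0.21 ± 0.07; adjusted p = 0.036), a call lost under median centring (0.06) and with the mean over probes (0.08), in 3 other settings, and without any 1 array but saline 48 h and cobalt 6 h (0.17 to 0.22). Its cobalt minus saline difference of 0.74 ± 0.13 (adjusted p = 0.00311) turned to -0.88 under median centring and was 0.45 with the mean over probes. Plgrkt, a plasminogen receptor, differed by -0.73 ± 0.16 (adjusted p = 0.00825), and by -2.36 under median centring.

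Among 5 tested inhibitors of fibrinolysis 1 was higher and 1 lower in the average. A2m, a broad protease inhibitor that also binds plasmin, rose 2.83-fold (1.50 ± 0.42; adjusted p = 0.0215), with a ratio of 4.11 on the cobalt 24 h array. That call was lost with scaling between arrays (1.70, adjusted p = 0.0538) and without saline 6 h, saline 12 h or cobalt 6 h (1.30 to 1.44). Serpini1, neuroserpin, fell 1.40-fold (-0.49 ± 0.05; adjusted p = 0.00032), and its cobalt minus saline difference was -0.46 ± 0.11 (adjusted p = 0.0111). With the software's ratio these were -1.22 and -1.05. Serpine2, protease nexin-1, differed by 0.58 ± 0.18 (adjusted p = 0.0351), by -0.60 under median centring, and was not called without any 1 array but saline 48 h and cobalt 12 h (0.49 to 0.58).

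Among 9 tested genes of platelet and adhesion control 1 was higher and 2 lower in the average. Ptgis, the prostacyclin synthase, rose 2.21-fold (1.14 ± 0.11; adjusted p = 0.000165). Adamts13, which cleaves von Willebrand factor, fell 1.87-fold (-0.91 ± 0.07; adjusted p = 4.9e-05), and by 1.58 on the log2 scale with the software's ratio. Entpd1, which degrades ADP, fell 1.50-fold (-0.58 ± 0.09; adjusted p = 0.00139), and by 0.33 with the mean over probes. Cobalt minus saline was 0.95 ± 0.22 for Ptgis (adjusted p = 0.0112) and 0.73 ± 0.18 for Entpd1 (adjusted p = 0.0123), and under median centring both reversed, to -0.86 and -1.06. With the mean over probes the Entpd1 difference was 0.32 and not called (adjusted p = 0.148).

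**Figure D5:**
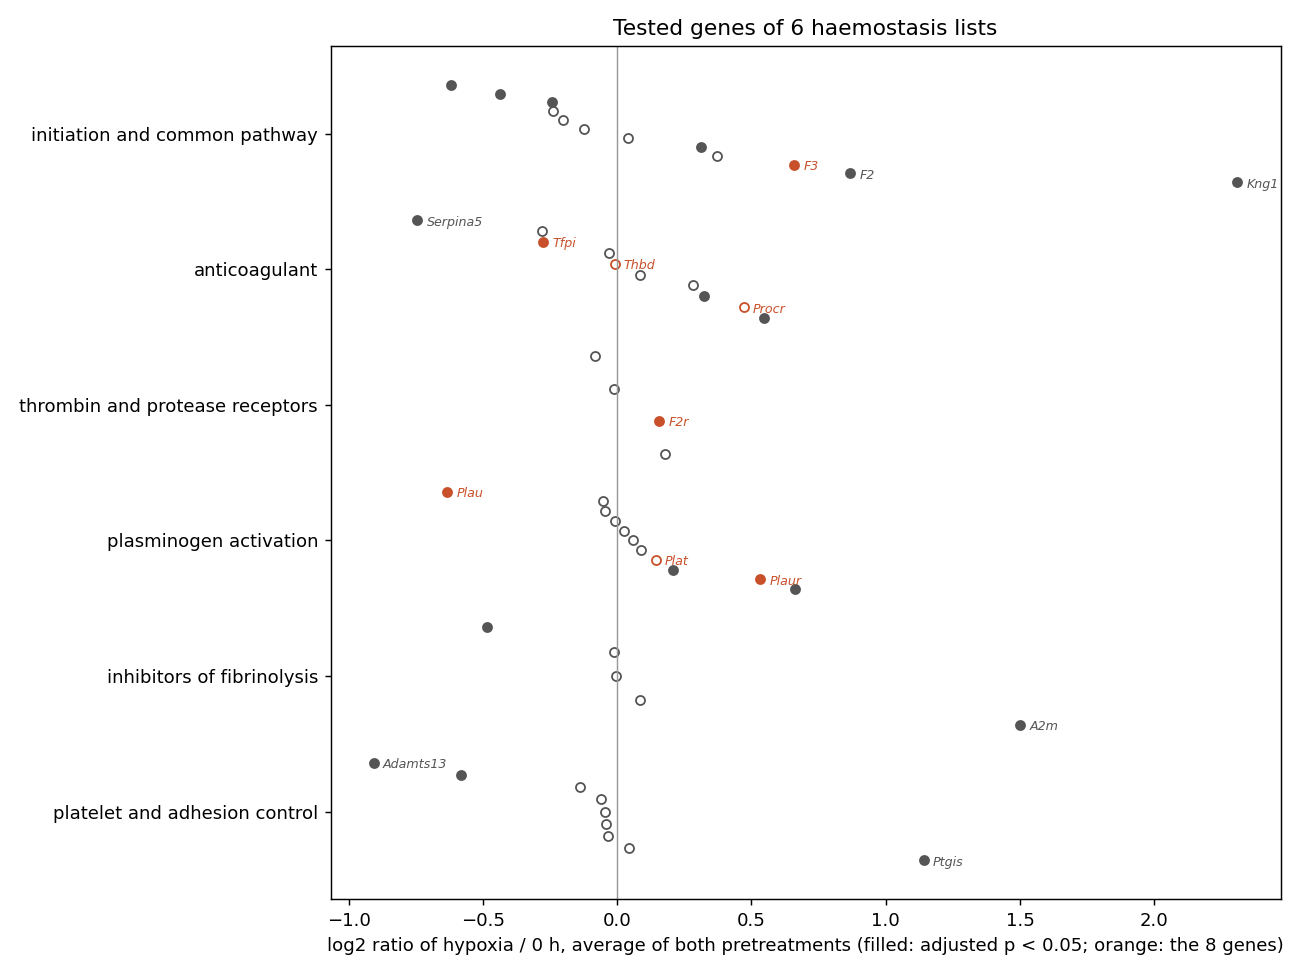
Average log2 ratio of hypoxia over 0 h (horizontal axis) of each tested gene of 6 haemostasis lists (vertical axis), with the 8 genes in orange, filled where the adjusted p was under 0.05. Kng1 at 2.31 and A2m at 1.50 lie farthest to the right, and Adamts13 at -0.91 farthest to the left.

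Several of these genes are made largely by endothelium, as Thbd, Procr and Tfpi are, and markers of lung cell types moved too. In bulk tissue, fewer cells of a type and less RNA per cell cannot be told apart. Over all genes 31.9% were called in the average, 40.1% in saline rats and 20.8% in cobalt rats. All 15 endothelial markers were tested and none was at background. In saline rats 0 were called higher and 10 lower, and their summed level was 87290 to 104528 in hypoxia against 121848 to 151546 at 0 h. In cobalt rats 5 were called higher and 1 lower, and the sum was 125152 to 155988 against 101841 to 105088. With median centring these counts were 6 higher and 3 lower in saline rats, and 1 higher and 11 lower in cobalt rats. The higher summed level was in both pretreatments that of the Cy3 channel, which held 0 h RNA in saline and hypoxia RNA in cobalt rats.

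In the average 1 endothelial marker was higher and 6 lower. The Procr and Thbd ratios in saline rats thus stood beside a summed endothelial level that was lower in the hypoxia channel, which was in Cy5. The part of cell types and of dye in the results was not tested. Of 10 tested smooth muscle and pericyte markers 8 were higher and 1 lower in the average. Of 12 macrophage and monocyte markers, another source of F3, Plau and Plaur, 3 were higher and 3 lower, and their summed level in saline rats was 45932 to 57605.6 in hypoxia against 67096.2 to 108713 at 0 h. In cobalt rats that sum was 44342.5 to 67699.1 against 45104.8 to 48944.5. The neutrophil sum in saline rats was 4591.59 to 25133.6 in hypoxia and 9263.4 to 10265 at 0 h, and in cobalt rats it was 5087.43 to 10633.4 and 4946.7 to 5861.48, with Fpr1 not well above background on any array. All 9 type II alveolar markers were tested. In saline rats 0 were called higher and 8 lower, with a sum of 183723 to 195593 in hypoxia against 330569 to 396867 at 0 h, and in cobalt rats 3 were higher and 0 lower, with a sum of 221248 to 341582 against 187206 to 197703. With median centring these counts were 6 higher and 1 lower in saline rats, and 0 higher and 8 lower in cobalt rats. For the type II markers too the Cy3 channel had the higher sum in both pretreatments, but this did not hold for every list. The smooth muscle and pericyte sum was higher in hypoxia in both. It was 44771.7 to 60019.8 against 29063.3 to 30177.4 at 0 h in saline rats, and 70000.4 to 101433 against 25483.5 to 27619.2 in cobalt rats. The type I alveolar sum was lower in hypoxia in both. It was 87258 to 133014 against 144492 to 169252 in saline rats, and 113894 to 142155 against 146970 to 152696 in cobalt rats. The part of these cell types and of dye was not tested either.

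Across the 8 arrays, which share 2 batches of slide, dye and 0 h RNA, the ratios of F3 correlated at 0.77 with those of Procr and at 0.73 with those of Plaur, and those of Procr and Plaur at 0.79. Among 11990 other genes with a gene name, the ratios most like those of F3 were those of Tmc4 (Pearson r 0.99) and Tpt1-ps2 (0.98). For Plaur they were Ugdh (0.97) and Stard5 (0.96), and for Plau Cited1 (0.98) and Hmgn1 (0.97). For Plat they were Rhov (0.93) and Crem (0.91), for Thbd Thsd1 (0.96) and Tead3 (0.95), and for Tfpi Rnd1 and Kat2b (both 0.89). Picked as the highest of so many over 8 points, these values are a description of likeness.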

How the data were processed

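Arrays were read with Agilent Feature Extraction 9.5.1.1, per the file headers, and the deposited scanner files give mean signals and local backgrounds as intensity. The deposited LogRatio is a log10 ratio of red over green, background-subtracted and dye-normalized by that software, per the file headers. The deposited series matrix proved to be log2, hypoxia over 0 h: its columns have a median of 0 and follow LogRatio at a correlation above 0.999 in size.

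From the signals, log2 ratios were computed with limma 3.58.1 (R 4.3.3) by normexp with an offset of 50 and then loess within arrays, and turned to hypoxia over 0 h. Quantiles of mean intensity were equalised for levels only, and outlier spots were dropped. Probes had to be well above background on 4 or more of the 8 arrays, in 1 channel at least, with no missing value (28510 of 41012), and the brightest stood for its gene. RefSeq tables named 10735 probes by accession, 5512 by symbol and 3719 by synonym. Limma was fitted to 24141 genes with a variance trend over intensity, by pretreatment and by duration, with Benjamini-Hochberg adjustment. The number of arrays limits the precision.

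The 8 genes, the lists and the tests were chosen with earlier results of these data known. Named beside the 8 were, per list, up to 3 called genes of smallest p in the average and up to 2 in each difference, and for each of the 8 but Procr and F2r the 2 genes with the most similar ratios. Vwf was named after their values were seen. The fit was tested on simulated data with 200 changed genes. Of changes of 0.5 on the log2 scale it recovered 82% in the average, 7.5% in cobalt minus saline and 0% in late minus early. Of changes of 1 it recovered 97.5%, 81% and 78.5%. The alternatives tried replaced loess by median centring or by scaling between arrays, the ratio by the software's or the series matrix's, normexp by no background subtraction, the filter by none or a strict one, and the brightest probe by a mean over probes. Others kept outlier spots, used duration as a factor or left out each array, and one added after the data were seen used the other probe of Procr and Tfpi. The genes whose ratios were most like those of Procr are not reported here.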

Additional observations from a re-analysis of the deposited data

Results flagged for a closer look

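The F3 response differed between pretreatments, being lower in cobalt than in saline rats by a log2 difference of -0.85 (limma, adjusted p = 0.00785), with no overlap of the 4 saline and 4 cobalt arrays. The Thbd response differed the other way, by 0.56 (adjusted p = 0.0356), with overlap at 24 h. For F2r the fit gave -0.45, but neither channel was well above background on any cobalt array, so the value sets measured against unmeasured signals and is no test of a difference in response. It was -1.93 with the software's ratio and 0.19 under median centring. Pretreatment, slide, scan and dye cannot be told apart in these 3 values.

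In the 0 h channel of the 4 saline arrays 1 array stood apart for F3, where the gap of the 48 h array to the nearest other was 0.954 of the whole range (levels 11.44, 11.44, 11.46 and 12.04). The same held for Plaur, with a gap of 0.899 of the range on the 48 h array, which was low at 7.34 against 7.46 to 7.48 on the others. These are 2 of 16 groups examined, and chance alone marks about 1 in 20.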

How the results depend on the processing

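Of the results, the calls in the average for F3, Plau, Plaur and Tfpi, in saline rats for F3 and Plaur, and in cobalt minus saline for F3 kept direction and call under every alternative and left-out array. Of the 8 genes, F2r included, median centring called 7 in saline rats, in cobalt rats and in the difference, 3 at 12 h, 1 at 24 h and 2 at 48 h. Of all 24141 genes it called 14265 in saline rats, 19418 in cobalt rats and 19058 in the difference. In cobalt rats 1 gene was called with no filter and with the other probe of Procr and Tfpi. At 12 h 1 was called with the mean over probes and with that other probe. At 48 h 0 were called with either deposited ratio, scaling, no background subtraction or the mean over probes. Leaving out arrays gave 0 to 2 genes in cobalt rats, where 2267 to 5597 of all genes were called. It gave 0 to 1 at 12 h, 0 to 4 at 6 h and 0 to 1 at 48 h. For the single durations no share of all genes is given under these settings, so those counts describe the processing only.

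Under median centring the sign reversed in the difference for F2r (0.19), Plat (-1.20), Thbd (-1.92), Entpd1 (-1.06), Lrp1 (-0.88), Ptgis (-0.86) and Serpine2 (-0.60). It reversed in cobalt rats for F2r (0.57), F3 (-0.85), Plat (-0.60), Plaur (-0.17) and Thbd (-0.91), in saline rats for Tfpi (0.66) and Thbd (1.01), and in the average for Thbd (0.0527). Values near 0 changed sign for Thbd in the average (software 0.0336, scaling 0.0107, series matrix 0.0325; left-out arrays -0.0583 to 0.0584) and for Plat in saline rats (software -0.000503; left-out arrays -0.18 to 0.19). They also did for Procr in cobalt rats (software 0.0168, no background subtraction 0.0111, scaling 0.0121, series matrix 0.0175; left-out arrays -0.17 to 0.12). For Tfpi the difference reversed with the mean over probes (0.24) and the other probe (0.57). Apart from the construction of left-out arrays, the cause was not tested. Signal over background limits F2r. F11, F2, Tfpi2, Serpini1, Adamts13 and F2rl1 were among others that moved by over 1.5 times with the software's ratio. So did Proc in the average (0.32 to 0.54) and Plau in saline rats (-0.48 to -0.80). No paired analysis was possible because each condition has 1 array and so no replicate number to pair by. Pairing each saline array with the cobalt array of equal duration, as the fit with duration as a factor does, ended the calls of Thbd in the difference (adjusted p = 0.0629) and Tfpi in cobalt rats (adjusted p = 0.0764), and added those of Plaur in cobalt rats (adjusted p = 0.0452) and Plau in saline rats (adjusted p = 0.0389). Alternatives for cobalt minus saline in 0 h levels used the software's processed signals only.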
